A study of Homo sapiens with 2 samples.

Results

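The genes described here build autophagosomes or acidify lysosomes: the ATG genes, the ULK kinases, the ATG8 proteins (GABARAP and MAP1LC3 genes), WIPI1 and WIPI2, BECN1, the receptors SQSTM1 and NBR1, the regulators TFEB and TFE3, LAMP1 and LAMP2, and the subunits of the vacuolar ATPase (V-ATPase). They were taken by name from a table of ATF1 binding peaks, in which each gene name appears once; of 53 matching names 1 antisense name was left out, which left 52 of 15064 peaks. ATF1, which belongs with CREB1 and CREM to a family of leucine zipper transcription factors, was mapped by ChIP-seq in HCT116, a human colon adenocarcinoma line, in 1 library precipitated with an antibody listed against 3xFlag-ATF1. How the tagged protein was made, and its level beside native ATF1, were not given in the sources used here. The other of the 2 samples is input DNA, from the same line and with no antibody, and was not used here. There is no replicate, untagged control or second condition, so every value describes this 1 library and no test between conditions was possible.

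Autophagy encloses cytoplasm in a membrane and delivers it to lysosomes. ULK kinases start the process, a lipid kinase complex with BECN1 marks the membrane, a ubiquitin-like conjugation cascade attaches ATG8 proteins to it, and receptors such as SQSTM1 bring in cargo. The V-ATPase pumps protons into the lysosome through a membrane sector, V0, driven by an ATP-hydrolysing sector, V1. TFEB and TFE3 switch on many of these genes through E-box elements, and CREB family proteins, which bind the cAMP response element (CRE), are known to activate autophagy genes in fasted mouse liver.

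The promoter stretches below show the CRE letters that were searched for at these genes, with their surroundings. The full CRE has 8 letters, TGACGTCA, and its core has 5, TGACG; both were searched on both strands, so CGTCA on the printed strand is also a core, and each full CRE holds a core on either strand. GABARAPL1 is shown as the 1 gene of the set with a full CRE in its promoter window, and ATG7 and ATP6V0A1 as the strongest peaks with a core only. The ATP6V0A1 core was 80 bp from its summit, which lies outside the stretch printed. ATG2B is shown for a core near the summit, and ATP6V1D as the strongest peak of the set, with no core in its window. Capitals mark the CRE and its core. All are from RefSeq promoter windows on GRCh38.p14, printed 5′ to 3′ in the direction of transcription, and lie before the transcription start.
GABARAPL1, chr12:10212796-10212876, plus strand: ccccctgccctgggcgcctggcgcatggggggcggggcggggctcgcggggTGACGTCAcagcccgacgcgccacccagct
ATG7, chr3:11272316-11272396, plus strand: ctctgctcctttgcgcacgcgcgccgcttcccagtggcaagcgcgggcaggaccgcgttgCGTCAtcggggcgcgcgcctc
ATP6V0A1, chr17:42458691-42458771, plus strand: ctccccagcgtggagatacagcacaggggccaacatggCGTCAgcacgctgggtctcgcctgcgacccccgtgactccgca
ATG2B, chr14:96363368-96363448, minus strand: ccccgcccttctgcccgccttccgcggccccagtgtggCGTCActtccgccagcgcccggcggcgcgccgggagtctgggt
ATP6V1D, chr14:67359909-67359989, minus strand: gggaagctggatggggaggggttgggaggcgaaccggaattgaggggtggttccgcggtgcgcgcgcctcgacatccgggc

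ATF1 peaks named for these genes were stronger, at the median, than the listed peaks as a whole. Strength is the authors' fold enrichment, a ratio whose background the header leaves unspecified, and a tag is a sequenced read counted in the peak. The median was 8.955-fold (interval from ranked values 7.76 to 10.46), with quartiles of 7.16 and 12.89 and a range from 3.35 at TFEB to 26.76 at ATP6V1D. The whole table had a median of 6.97-fold. The peaks held between 23 and 983 tags, with a median of 259.5 against 162 in the whole table, and their median length of 1597.5 bp was close to the 1551 bp of all peaks. Of the 52 peaks, 41 were at or above the table's median enrichment, against 50.2% of all peaks, and 20 (38.5%, interval 25.3 to 53.0%) were at least 10-fold, a level chosen after the values were seen, against 23.9% of all peaks. The V-ATPase genes had a median of 10.145-fold (n = 18, interval 7.76 to 14.99) and the autophagy genes of 8.31-fold (n = 32, interval 7.11 to 10.32). The intervals overlapped, and LAMP1 and LAMP2 were in neither group. Intervals on shares are exact 95% binomial intervals, and those on tags are exact Poisson intervals of counting error. Intervals on medians are from the ranked values of the genes concerned. Since the genes were chosen by name, intervals on shares and on medians describe spread among them. None covers variation between libraries.

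**Figure D1:**
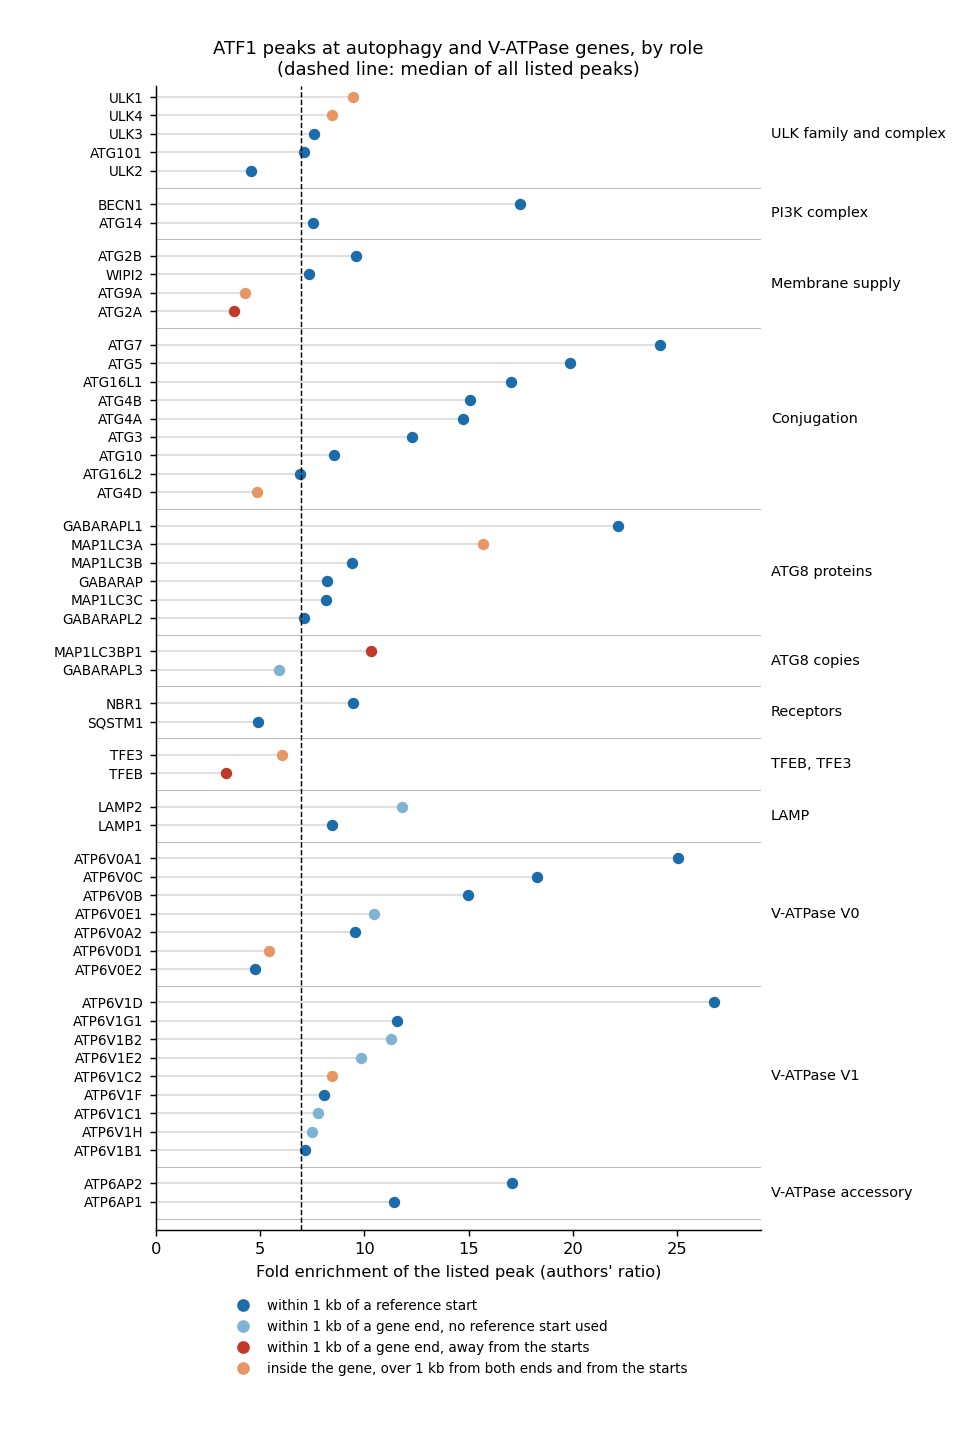
Fold enrichment (x axis, authors' ratio) of the peak named for each of the 52 genes, grouped by role; colour gives the place of the summit and the dashed line the median of all listed peaks, 6.97. The conjugation and V-ATPase genes reach above 24-fold, while TFEB at 3.35 has the lowest value.

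Most of these peaks sat at a transcription start. Of the 42 genes with a RefSeq promoter window, 34 (81%, interval 65.9 to 91.4%) had the summit within 1 kb of a start, against 63.7% of all listed peaks with a window. The median distance from summit to start was 113 bp, against 226 bp in the table. Among peaks at a start alone it was closer, 75.5 bp for the 34 genes against 88 bp for all listed peaks. Measured to either end of the gene, 41 of the 52 summits (78.8%, interval 65.3 to 88.9%) lay within 1 kb, against 60.3% of all peaks matched to a gene. Among the 34 at a start, 25 summits were before it, 20 were within 100 bp of it and the distances ran from 14 bp at ATG7 to 606 bp at MAP1LC3C. The same counts were not made for all listed peaks at a start. These 34 had a median of 9.515-fold, beside 7.74-fold for all 7043 listed peaks at a start and 6.37-fold for the 4016 away from one. The higher median of the set was therefore also present among peaks at starts alone.

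The remaining 18 summits were in other places. For 7 genes without a start in the table used, namely LAMP2, ATP6V0E1, ATP6V1B2, ATP6V1C1, ATP6V1E2, ATP6V1H and GABARAPL3, the summit was within 1 kb of a gene end. At TFEB, ATG2A and MAP1LC3BP1 it was within 1 kb of a gene end but over 1 kb from every start. The last 8 lay inside the gene and over 1 kb from both ends: MAP1LC3A, ULK1, ULK4, ATG9A, TFE3, ATG4D, ATP6V0D1 and ATP6V1C2. This placing is by summit, and the peaks of MAP1LC3A, ULK1 and ATG4D themselves extended past an end of the gene. For MAP1LC3A, ULK4 and ATG4D no start was used, so a summit at an internal start of these genes would not be recognised. The median enrichment of these 8 was 7.235-fold with a median of 65.5 tags, against 331 tags for the 34 peaks at starts. Of the authors' region classes, 27 peaks were exonic, 11 intronic, 13 upstream and 1 downstream. The classes were not counted over the whole table.

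**Figure D2:**
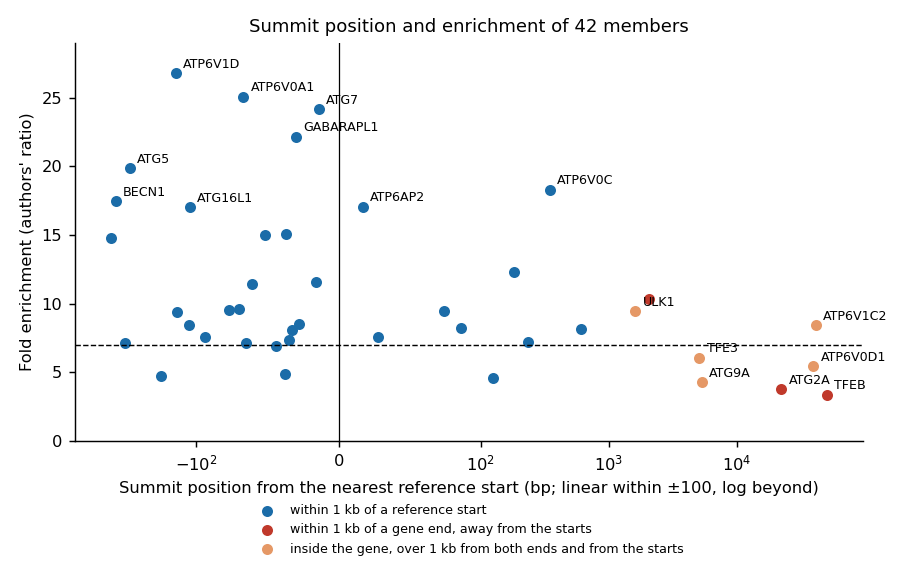
Fold enrichment (y axis, authors' ratio) against the position of the summit from the nearest RefSeq start (x axis, bp, linear within 100 bp and logarithmic beyond; negative is before the start) for 42 genes. Every peak above 16-fold in this plot lies within 1 kb of a start, and the dashed line is the median of all listed peaks, 6.97.

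The kinases and associated proteins that start autophagy had peaks near the table's median. ULK1, the main initiating kinase, had 9.44-fold and 614 tags at chr12:131893873-131897901, an intronic peak of 4029 bp, the longest of the set. Its summit lay 1618 bp inside the gene, but the peak also covered the RefSeq start of ULK1. ULK2, its close relative, had the weakest peak of this group, 4.55-fold with 373 tags at chr17:19866591-19868771, in an exon and 124 bp after the start. ULK3 had 7.57-fold with 261 tags, and ATG101, a partner of ATG13 in the ULK complex, had 7.11-fold with 412 tags. ULK4, a pseudokinase, had 8.42-fold from only 24 tags (interval 15.4 to 35.7), 42397 bp from the nearer end of its gene. The median of these 5 peaks was 7.57-fold, and 4 of them were above 6.97.

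BECN1, the scaffold of the lipid kinase complex that follows, had 17.45-fold and 180 tags at chr17:42823584-42824823. Its summit lay in an exon, 429 bp before the start of its nearest window and 26 bp from the gene's outer end. ATG14, which directs that complex to autophagy, had 7.54-fold and 127 tags, with the summit 28 bp after its start. The enrichment at BECN1 was thus the higher of the pair.

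Genes that supply membrane to the growing structure had listed peaks in different places. ATG2B, a lipid transfer protein, had 9.61-fold and 403 tags at chr14:96362300-96364379, 70 bp before its start, and WIPI2, which binds the lipid mark, had 7.33-fold and 258 tags. ATG2A, the paralogue of ATG2B, had 3.76-fold and 216 tags at chr11:64892555-64895955, 22289 bp from a start and 374 bp from the far end of the gene. ATG9A, a membrane-spanning scramblase, had 4.26-fold and 42 tags (interval 30.3 to 56.8), 5354 bp inside the gene. A stronger peak, listed for the neighbouring ANKZF1, lay at the ATG9A promoter: 10.43-fold with 371 tags, its summit 55 bp from the start of ATG9A. The start of ATG2A had no listed peak within 1 kb under any name.

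The conjugation genes had the highest median of any group of more than 2 genes, 14.74-fold for 9 peaks (interval 6.93 to 19.84). The lower end of that interval was just below the table's median of 6.97. Leaving out peaks shared with another gene end gave 12.775-fold. Of the 9 peaks, 6 (66.7%, interval 29.9 to 92.5%) were at least 10-fold, against 23.9% of all peaks. ATG7, the activating enzyme of the cascade, was the strongest with 24.16-fold and 350 tags (interval 314 to 389) at chr3:11271772-11272970, its summit in an exon 14 bp before the start. ATG5, which joins ATG12 in the complex that places ATG8 proteins on membrane, had 19.84-fold and 526 tags, and ATG16L1, the third part of that complex, had 17.02-fold and also 526 tags. ATG4B and ATG4A, proteases that process ATG8 proteins, had 15.04-fold with 983 tags, the most of all 52 peaks, and 14.74-fold with 79 tags.

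The later values of the group ran down to the table's background. ATG3, the enzyme that transfers ATG8 proteins to lipid, had 12.27-fold with 262 tags, and ATG10, its counterpart for ATG12, had 8.53-fold with 447 tags. ATG16L2, a paralogue of ATG16L1, had 6.93-fold with 426 tags and lay just under the median of all peaks. ATG4D had the weakest peak, 4.86-fold with 130 tags at chr19:10551537-10554624, in an intron. It was the only conjugation peak whose summit was counted neither at a start nor at a gene end, and no start was used for ATG4D. The summit was 1374 bp from the nearer gene end, and the peak itself extended past that end.

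Among the ATG8 proteins, which coat the autophagosome membrane, GABARAPL1 stood highest with 22.16-fold and 849 tags (interval 793 to 908) at chr12:10211750-10213974. Its summit was in an exon by the authors' class and 30 bp before the RefSeq start, inside the stretch printed above. MAP1LC3A had 15.70-fold and 514 tags in an intronic peak with its summit 1773 bp from the gene's nearest end. MAP1LC3B, the usual marker of autophagosomes, had 9.38-fold and 583 tags. GABARAP had 8.20-fold with 332 tags, MAP1LC3C 8.15-fold with 30 tags, and GABARAPL2 the lowest, 7.12-fold with 298 tags at chr16:75565627-75567620. All 6 were above the table's median.

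A pair of near copies of these genes also had rows, MAP1LC3BP1 with 10.32-fold and 39 tags and the transcribed pseudogene GABARAPL3 with 5.90-fold and 34 tags. The handling of reads that fit several copies was not given in the sources used here. Both values are uncertain for that reason. Counting only genes that are protein-coding in RefSeq, which leaves out GABARAPL3, kept 51 of the 52.

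The pair of cargo receptors lay on either side of the table's median, and both regulators were below it. NBR1, a receptor for ubiquitinated cargo, had 9.47-fold, above the median of the 52, with the fewest tags of the set, 23 (interval 14.6 to 34.5). A stronger peak listed as LOC101929767, with 14.74-fold and 68 tags, had its summit 256 bp from a start of NBR1. SQSTM1, also known as p62, had many tags, 529, and a low enrichment of 4.88-fold at chr5:179804915-179808733, 38 bp before a start. TFEB, the main transcription factor of lysosomal genes, had the lowest enrichment of all, 3.35-fold with 229 tags at chr6:41682449-41685344, in the class downstream of the gene and 50773 bp from its nearest start. TFE3, its relative, had 6.05-fold with 56 tags at chrX:49037814-49039427, in an exon 5103 bp inside the gene. Neither regulator had its listed peak at a start, and no peak of another name had its summit within 1 kb of a start of either.

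The V0 sector of the proton pump had 7 peaks with a median of 10.46-fold. ATP6V0A1, a form of the large subunit of the proton path, had 25.06-fold and 330 tags (interval 295 to 368) at chr17:42458391-42459529, upstream of the gene and 67 bp before its start. ATP6V0C, the main subunit of the rotating ring, had 18.29-fold with 875 tags, and ATP6V0B, another ring subunit, 14.99-fold with 518 tags. ATP6V0E1 had 10.46-fold with 196 tags, and ATP6V0A2, a second form of the large subunit, 9.56-fold with 307 tags. ATP6V0D1, part of the central stalk, had 5.44-fold with 75 tags, 39705 bp inside the gene from its nearest start.

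The paralogues ATP6V0E1 and ATP6V0E2 differed in a way that fold and tags show separately. ATP6V0E2 had the weakest V0 enrichment, 4.74-fold at chr7:149872663-149874883, in an exon and 190 bp before a start, with 929 tags, the second most of the whole set. ATP6V0E1 had the higher enrichment and far fewer tags.

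The V1 sector held the strongest peak of the 52. ATP6V1D, a subunit of the central rotor, had 26.76-fold and 193 tags (interval 167 to 222) at chr14:67359417-67360952, in an exon and 145 bp before its start. The other V1 peaks lay lower, between 7.17 and 11.57-fold: ATP6V1G1 (11.57-fold, 116 tags) and ATP6V1B2 (11.26-fold, 170 tags) led them, and ATP6V1E2 had 9.83-fold with 290 tags. ATP6V1F, ATP6V1C1 and ATP6V1H, with 8.07, 7.76 and 7.47-fold, had between 154 and 195 tags each. ATP6V1C2 had 8.42-fold from 27 tags, 21837 bp from an end of its gene, and ATP6V1B1, a form of the catalytic sector's B subunit known from kidney and inner ear, had the lowest value, 7.17-fold from 33 tags at chr2:70935625-70936543. All 9 were above the table's median, and the median of the group was 8.42-fold.

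The accessory proteins of assembly also had peaks at their starts. ATP6AP2, the prorenin receptor, had 17.06-fold with 298 tags, 17 bp after the start, and ATP6AP1 had 11.41-fold with 162 tags, 61 bp before it. Of the lysosomal membrane proteins, LAMP2 had 11.79-fold with 66 tags and LAMP1 8.44-fold with 388 tags at chr13:113296384-113297962, 114 bp before its start.

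Not every gene of these families had a row. RefSeq lists 63 protein-coding genes that the name rule takes, and 51 (81%, interval 69.1 to 89.8%) had a row of their own, against 60.8% of all protein-coding genes. A summit under any name lay within 1 kb of a gene end for 45 (71.4%, interval 58.7 to 82.1%), against 48.0% of all protein-coding genes. The 12 without a row included 4 with such a peak listed under a neighbour's name. At ATG13, a subunit of the ULK complex, this was the HARBI1 peak of 18.62-fold and 343 tags (chr11:46616636-46618305), its summit 303 bp from the start of ATG13. At WIPI1 it was the PRKAR1A peak of 20.15-fold and 494 tags, 300 bp from the start of WIPI1. ATG12 had the AP3S1 peak, 5.81-fold with 256 tags, and ATP6V1A, the catalytic V1 subunit, the NAA50 peak, 4.58-fold with 270 tags. Among genes with a row of their own, a stronger gene-end peak had another name at ATG9A and NBR1, as given above, and at SQSTM1, where the peak listed as C5orf45 (7.58-fold, 44 tags) lay 16674 bp from the nearest start.

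The remaining 8 genes, ATG4C, ATG9B, ATP6V0A4, ATP6V0D2, ATP6V1E1, ATP6V1G2, ATP6V1G3 and MAP1LC3B2, had neither a row nor a listed peak at a gene end. Since the table gives 1 peak a gene and only peaks of at least 3-fold, a weaker or second peak there would not be seen.

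Shared promoters limit how a peak can be assigned. For 8 of the 42 genes with a window, another protein-coding start, facing the opposite way, lay within 1 kb. They were ATP6V1D with EIF2S1, ATG4B with THAP4, ATG4A with PSMD10 and ATG3 with SLC35A5. The others were ATG2B with GSKIP, MAP1LC3B with FBXO31, SQSTM1 with MGAT4B and NBR1 with BRCA1. These 8 peaks had a median of 10.94-fold, against 8.31-fold for the 34 other genes with a window. The 10 genes without a window were not examined, among them ATP6V1E2, whose summit lay within 1 kb of an end of RHOQ. Neighbours without a window were not seen either, and the share over all listed peaks was not counted. A single peak at such a promoter cannot be told apart between its genes.

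The full CRE was rare at these genes. Only GABARAPL1, 1 of 42 (2.38%, interval 0.0603 to 12.6%), had TGACGTCA in the window nearest the summit, against 3.06% of all listed peaks with a window and 1.85% of all 35116 promoter windows. In GABARAPL1 its centre was 3.5 bp from the summit. Across the table, peaks at a start with a full CRE had a median of 17.14-fold (n = 268), and GABARAPL1 was above that value.

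The core TGACG was present at 19 of 42 (45.2%, interval 29.8 to 61.3%), against 32.8% of listed peaks and 24.6% of all promoter windows. The lower end of the interval for these genes was below the share of listed peaks. The 19 include ULK1, ATG9A and ATP6V0D1, whose nearest core was 1684, 5544 and 39707 bp from the summit. Over all 42 windows the median was 9.61-fold with a core and 8.15-fold without, a ratio of 1.18. At starts alone the gap was wider: the 15 genes with a core but no full CRE had a median of 12.27-fold and the 18 without either had 8.175-fold. All listed peaks at starts gave the same order, 9.60-fold (n = 2405) and 6.80-fold (n = 4370). Absence of a core here means absence from the window. At ATG5, ATG4A, ATG101, ULK2, MAP1LC3C, GABARAP and NBR1, all counted as without, the summit lay outside it and its letters were not read. ATP6V1F, also counted as without, had a TGACG 224 bp from its summit in the window of FLNC-AS1. The ranges of the genes overlapped: with a core only they ran from 4.74 at ATP6V0E2 to 25.06 at ATP6V0A1, and without it from 4.55 at ULK2 to 26.76 at ATP6V1D. The ATP6V1D peak had no TGACG in its own window or in that of EIF2S1 across the shared promoter.

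**Figure D3:**
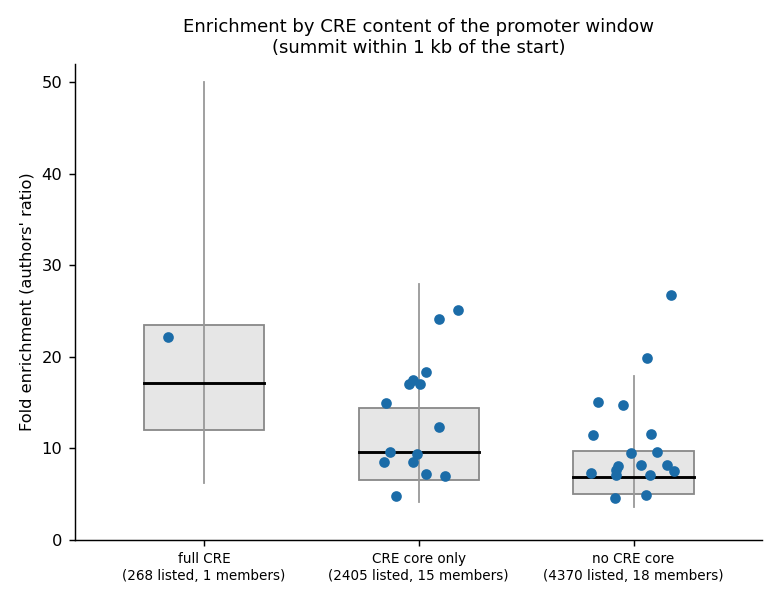
Fold enrichment (y axis, authors' ratio) of listed peaks at a start, by what the promoter window holds: boxes show quartiles and median of all listed peaks, lines the 5th to 95th percentile, and points the 34 genes, spread sideways for view. The medians of all listed peaks fall from 17.14 with a full CRE to 9.60 with a core only and 6.80 with neither. ATP6V1D at 26.76 is the highest point without a core in its window. Where a summit lay outside the window, the letters at it were not read.

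The distance from the core to the summit varied. For the 16 genes with one and a summit at a start, the nearest was a median of 22.5 bp away, against 56 bp for 2673 listed peaks. Within 20 bp, a distance chosen after the values were seen, there were 8 of 16 (50%, interval 24.7 to 75.3%), against 28.3% of the listed peaks. The gap was smaller within 50 bp (62.5%, interval 35.4 to 84.8%, against 47.4%) and within 100 bp (75%, interval 47.6 to 92.7%, against 65.2%), and at all 3 distances the interval held the share of listed peaks. The distances were 2 bp at GABARAPL1, 3 bp at ATG2B, 4 bp at both ATP6AP2 and ATG16L2, 5 bp at ATG7, 6 bp at ATP6V0E2, 8 bp at ATG16L1 and 13 bp at ATG10. Nearness did not go with strength in every case, since ATP6V0E2 and ATG16L2 were below the table's median. ATP6V0C and BECN1 had 18.29 and 17.45-fold, and the nearest core found was 310 and 348 bp from the summit. Both summits lay outside the windows searched, so a nearer core there would not have been seen.

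**Figure D4:**
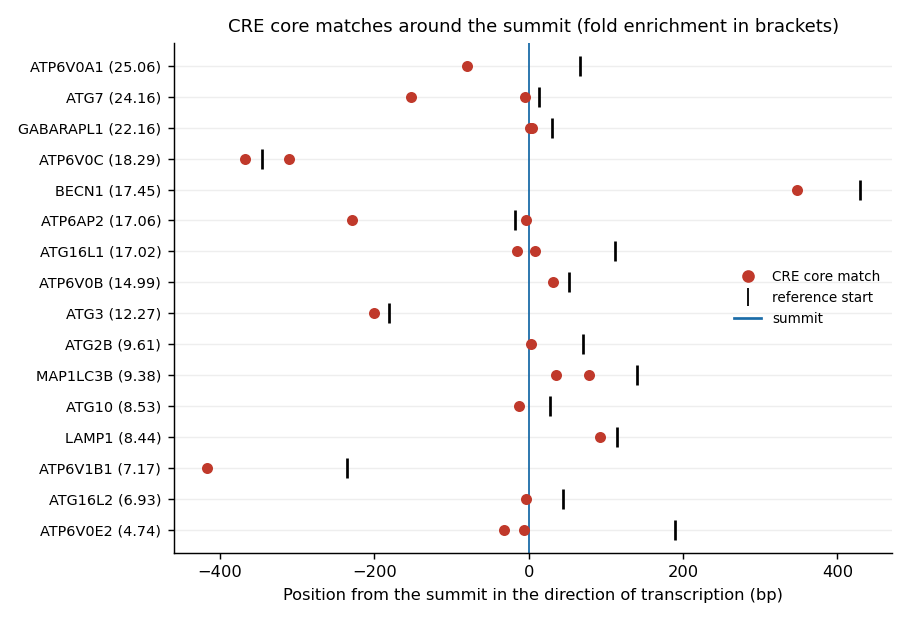
Positions of core matches (red points) and RefSeq starts (black ticks) relative to the summit (blue line, 0 bp), along the direction of transcription, for the 16 genes with a match and a summit at a start, ordered by fold enrichment (in brackets). In 8 of the 16 a match lies within 20 bp of the summit. BECN1, ATP6V0C and ATP6V1B1 have theirs over 300 bp away, but their summits lie outside the windows searched.

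The 3 letters after the core varied. The stretches below show the same 8 letters, TGACGCCA, at ATG16L1 and ATG16L2, which are paralogues, as CGTCA preceded by tgg on the printed strand; ATP6V0A1 and ATG2B above have it too. ATG10 is shown for TGACGTGA and ATP6V0E2 for a weak peak with 2 cores. Capitals again mark the core, on GRCh38.p14 from RefSeq and before the start.
ATG16L1, chr2:233251529-233251609, plus strand: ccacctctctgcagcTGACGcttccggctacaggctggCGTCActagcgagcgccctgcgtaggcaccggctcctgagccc
ATG16L2, chr11:72814323-72814403, plus strand: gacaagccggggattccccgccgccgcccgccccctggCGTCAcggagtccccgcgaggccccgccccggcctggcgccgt
ATG10, chr5:81971942-81972022, plus strand: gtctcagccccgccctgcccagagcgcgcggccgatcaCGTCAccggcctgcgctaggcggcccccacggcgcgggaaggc
ATP6V0E2, chr7:149873733-149873813, plus strand: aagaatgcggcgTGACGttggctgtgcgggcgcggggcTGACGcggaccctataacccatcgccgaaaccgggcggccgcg

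Over all listed peaks at a start, windows with TGACGCCA had a median of 11.145-fold (n = 116), and the 4 genes that share it had 25.06, 17.02, 9.61 and 6.93-fold at ATP6V0A1, ATG16L1, ATG2B and ATG16L2. The ATG7 site nearest the summit read TGACGCAA, found in 70 listed windows with a median of 12.78-fold. The same 8 letters were thus found at peaks on either side of the table's median.

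E-box letters, the element of TFEB and its relatives, were searched because these genes are known TFEB targets. CACGTG has 6 letters and was present in 7 of 42 windows (16.7%, interval 6.97 to 31.4%), against 9.27% of listed peaks and 7.26% of all windows. The longer form TCACGTGA, which contains CACGTG, was in 4 (9.52%, interval 2.66 to 22.6%), against 1.59% and 0.98%: ATG3, LAMP1, ATP6V0D1 and ATP6V1G1. The nearest match was 39.5 and 88.5 bp from the summit at ATP6V1G1 and LAMP1, 173.5 bp at ATG3 and 39761.5 bp at ATP6V0D1. The others with CACGTG were ATG14, ULK3 and ATP6V0B, in which the nearest match was 2.5 bp from the summit. The AP-1 letters TGACTCA were in 1 of 42 (2.38%), at TFE3 and 5142 bp from its summit, against 3.23% of listed peaks. LAMP1 had 6 matches to CACGTG, the most of the set, and its promoter is shown for them. The other match lies outside the stretch printed. Capitals mark the 5 in the 200 bases before the start, on GRCh38.p14 from RefSeq, and the last of these overlaps a TGACG.
LAMP1, chr13:113297039-113297238, plus strand: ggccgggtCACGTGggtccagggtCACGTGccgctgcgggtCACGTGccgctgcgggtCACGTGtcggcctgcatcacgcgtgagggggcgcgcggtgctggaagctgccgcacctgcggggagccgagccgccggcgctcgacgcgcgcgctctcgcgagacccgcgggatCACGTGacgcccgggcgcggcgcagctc

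The promoter windows of the set were rich in CpG, with a median GC content of 67.5% against 65.3% for all listed peaks and a median ratio of observed to expected CpG of 0.903 against 0.817. ATP6V1B1 was at the low end with a ratio of 0.0337, and MAP1LC3C had 0.193; both peaks had under 50 tags. The part of base composition in the shares above was not tested.

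Fold enrichment and tags ranked the genes differently. Across the 52 peaks, which are from 1 library and not independent, Spearman's rho between tags and fold was 0.25, and 0.07 in the whole table. ATG16L2, SQSTM1, ULK2 and ATP6V0E2 were in the upper quartile of the table by tags and below its median by fold. ATG4A and LAMP2, with 79 and 66 tags, had 14.74 and 11.79-fold. Of the 8 peaks with under 50 tags, MAP1LC3C, NBR1 and ATP6V1B1 were at a start.

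**Figure D5:**
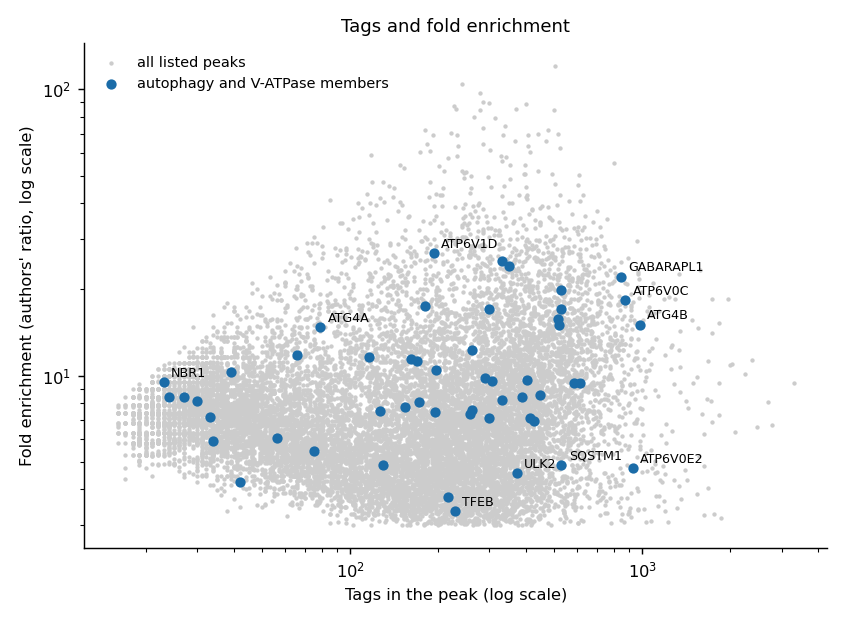
Fold enrichment (y axis, authors' ratio) against tags in the peak (x axis), both on log scales, for all 15064 listed peaks (grey) and the 52 genes (blue). ATP6V0E2 and SQSTM1 combine 929 and 529 tags with under 5-fold enrichment, while NBR1 has 9.47-fold from 23 tags.

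The other genes of these pathways also had listed peaks in most cases. Of 34 further autophagy genes, 28 (82.4%) had a row, against 60.8% of all protein-coding genes, and 25 (73.5%) had a listed peak at a gene end under any name, against 48.0%. Their median was 6.615-fold, below the table's 6.97, and 6 of the 28 rows (21.4%) were at least 10-fold, close to the 23.9% of all peaks. By rows of their own, the strongest were PIK3C3, the lipid kinase that works with BECN1 and ATG14 (19.66-fold, 128 tags), and NRBF2 (19.51-fold, 412 tags). NRBF2 is of the same complex, and its window held a full CRE. BNIP3L, a mitophagy receptor, had 15.92-fold and CALCOCO2, a receptor for bacteria and mitochondria, 14.33-fold. Gene-end peaks under other names reached 20.39-fold at TP53INP2 (listed as LOC105372599) and 17.63-fold at TAX1BP1 (listed as LOC105375210). Of 43 lysosomal genes, 33 (76.7%) had a row and 31 (72.1%) a gene-end peak. Their median was 7.65-fold, and 9 of the 33 rows (27.3%, interval 13.3 to 45.5%) were at least 10-fold, also near the background. LAMTOR5, of the complex that holds mTORC1 on lysosomes, had 30.02-fold and 374 tags, above every one of the 52, followed by GUSB at 20.48-fold, LAMTOR4 at 16.48-fold and LAPTM4B at 14.47-fold.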

How the data were processed

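The analysis started from the deposited peak table of the ChIP library; the input DNA was not used here. CASAVA, Bowtie2, bedtools and the hg38 build are named per the submitters' processing notes. Peak caller, control sample and annotation were not given in the sources used here. The authors deposited whole-number tag counts per peak, per the file headers, with fold enrichment (a ratio of unspecified background, lowest value 3) and a score of unstated basis (lowest value 50). Library depth is unknown. Another 1 line without a position was left out.

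Gene names were matched to RefSeq genes of GRCh38.p14, the assembly of hg38 (14141 names, 93.9%), and promoter windows (250 bases before to 50 after a start) came from RefSeq. Of the 52 genes, 42 had a window; those without were ULK4, ATP6V1H, MAP1LC3A, ATP6V0E1, ATP6V1C1, ATP6V1B2, ATG4D, GABARAPL3, LAMP2 and ATP6V1E2. The window nearest the summit was searched for the motif letters, and the search recovered each motif planted at a known position and strand in simulated windows.

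The genes and lists were chosen with earlier results of these data known. All genes are accounted for by role, the strongest and weakest of each role with position. From each other list the 4 genes with the strongest rows of their own are named. The medians of the set are of listed peaks, which had to reach the table's thresholds. Intervals are exact Clopper-Pearson (95%) or Poisson, and those on medians are from ranked values. Python 3.11.15, numpy 2.4.6, pandas 2.3.3, scipy 1.17.1 and matplotlib 3.10.9 were used.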

Additional observations from a re-analysis of the deposited data

How the results depend on the processing

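Of 45 values recomputed under other settings, 43 stayed within the limits set for a move and 2 moved. A count moved if its ratio to the main value passed a set limit. A median, or a ratio of medians, moved if it left an interval from ranked values. For the smallest role groups the limit was the range of their own genes, so these medians could not move. Reversal was not assessed. Both that moved replace the full CRE by its core TGACG, which is the more common by its construction: genes with a match rose from 1 to 19, and the ratio of median fold enrichment with and without a match, over all listed genes, went from 2.07 to 1.28. Genes whose summit lay at a gene end numbered 41, and between 34 and 49 under the other settings; the median fold was between 8.42 and 9.56. The settings that left out peaks with under 50 tags, or used any window of a gene or of the peak, were chosen after seeing the data. No paired analysis was possible because there is 1 ChIP library. The unknown depth, the unspecified background of the ratio and the limit of 1 peak per gene name bound every value.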

Other observations

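Among the lysosomal genes with a promoter window, 11 of 27 (40.7%, interval 22.4 to 61.2%) had CACGTG in the window nearest the summit, against 9.27% of all listed peaks with a window, and 0 of the 27 had a full CRE, which leaves an upper limit of 12.8%. Their median fold enrichment was 6.57 with CACGTG and 7.73 without it. Of the 64 possible 8-letter forms of TGACG followed by 3 letters, TGACGTCA had the highest median enrichment over listed peaks at a start, 17.14-fold, and a match lay within 100 bp of the summit in 83.2% of its windows. At ATG13, the listed peak named HARBI1 had a TGACG 1 bp from its summit, in the HARBI1 window.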
